A study of Mus musculus with 170 samples.

Results

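Saa1, Saa2, Saa3, Lcn2, Hp, Orm1 and Serpina3n, 7 genes of the acute phase response, were followed in the lungs and hearts of mice given particles from burned wildland fuels. The genes were chosen by symbol: each of their probe rows in the count table, 12 of 30146, was taken, and the counts of 1 symbol were summed, so that they are 7 of 21450 gene symbols. All mice were female and of the CD-1 stock, which is outbred. The treated mice received 50 µL of saline with smoke particles at 2 mg/mL, placed at the back of the throat so that it was breathed into the lungs. The 10 smokes were the flaming and the smoldering phase of 5 fuels, namely peat, red oak, eucalyptus, pine and pine needles. The other treated mice received LPS (bacterial endotoxin), and the controls received saline alone. Whole lungs were measured at 4 h and at 24 h, from 6 animals per smoke, 4 given LPS and 6 given saline. Hearts were measured at 24 h after red oak flame, red oak smolder, peat flame, peat smolder and saline, with 6 animals each, and came from animals whose lungs were also measured. In all there were 170 libraries, in 24 lung groups and 5 heart groups.

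The acute phase response is the change in blood proteins that follows infection or injury. Cytokines such as IL-6, IL-1 and TNF reach the liver and switch on its genes through the transcription factors STAT3, C/EBP and NF-kB, and in mice the lung also makes several of these proteins itself. Saa1 and Saa2 encode serum amyloid A proteins, which ride on high-density lipoprotein in the blood. Saa3 is the serum amyloid A gene that macrophages, epithelial and fat cells express outside the liver. Lcn2 encodes lipocalin 2, which withholds iron from bacteria by binding their siderophores. Hp encodes haptoglobin, which captures free haemoglobin. Orm1 encodes orosomucoid, a carrier protein of plasma, and Serpina3n encodes a secreted inhibitor of serine proteases.

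The 3 serum amyloid genes lie close together on mouse chromosome 7, and their promoters are shown here with that of Lcn2. These 4 genes rose after LPS at both times, as did Serpina3n, whose promoter is described but not printed. The sequences are from RefSeq on build GRCm38.p6 and run from 250 bases before to 50 bases after the start of the gene. Saa1 is at chr7:46742931-46743230 on the minus strand, Saa2 at chr7:46751583-46751882 on the plus strand, Saa3 at chr7:46715627-46715926 on the minus strand and Lcn2 at chr2:32387690-32387989 on the minus strand. Each is printed 5′ to 3′ on the strand of its gene, and the capitals mark matches to a C/EBP motif (TTGCNNAA) or an NF-kB motif (GGG, any 5 bases, then CC), read on both strands.
Saa1: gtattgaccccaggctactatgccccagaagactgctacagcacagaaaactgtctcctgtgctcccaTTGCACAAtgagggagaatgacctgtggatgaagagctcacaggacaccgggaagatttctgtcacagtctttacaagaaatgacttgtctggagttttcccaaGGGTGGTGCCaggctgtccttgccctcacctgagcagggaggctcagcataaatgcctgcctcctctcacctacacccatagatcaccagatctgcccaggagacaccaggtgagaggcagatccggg
Saa2: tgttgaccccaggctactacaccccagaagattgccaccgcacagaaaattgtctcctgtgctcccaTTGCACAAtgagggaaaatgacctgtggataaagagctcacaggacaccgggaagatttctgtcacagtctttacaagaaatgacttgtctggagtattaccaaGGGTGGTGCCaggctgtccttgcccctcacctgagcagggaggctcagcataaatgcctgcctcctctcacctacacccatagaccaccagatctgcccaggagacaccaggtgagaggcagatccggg
Saa3: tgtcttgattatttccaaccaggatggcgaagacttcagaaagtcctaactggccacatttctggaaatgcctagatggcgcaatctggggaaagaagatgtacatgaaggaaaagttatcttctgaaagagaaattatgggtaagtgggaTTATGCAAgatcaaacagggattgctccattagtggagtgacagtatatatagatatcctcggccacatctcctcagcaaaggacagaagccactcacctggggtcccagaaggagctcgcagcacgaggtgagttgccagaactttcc
Lcn2: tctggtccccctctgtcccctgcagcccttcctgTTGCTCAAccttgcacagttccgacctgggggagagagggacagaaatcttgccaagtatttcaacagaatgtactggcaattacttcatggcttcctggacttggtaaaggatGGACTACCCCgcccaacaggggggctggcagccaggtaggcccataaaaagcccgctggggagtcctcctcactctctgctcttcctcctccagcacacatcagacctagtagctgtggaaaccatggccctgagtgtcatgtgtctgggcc
The C/EBP motif was found in Saa1 starting 182 bases before the gene start, in Saa2 at 183 bases, in Saa3 at 99 bases (on the other strand) and in Lcn2 at 216 bases. It was present in 10.8% of all 32851 promoters of this length, and the promoter of Serpina3n held no match to it. The NF-kB motif was found in Saa1 at 78 bases before the start, in Saa2 at 79 bases and, on the other strand, in Lcn2. In the promoter of Serpina3n (chr12:104406458-104406757, plus strand, not printed) there were 4 matches to it on the 2 strands, which overlap in pairs. That motif is loose and was present in 50.8% of all promoters. A STAT motif (TTCNNNGAA, in 8.3% of all promoters) and a TATA box (TATAAA, in 13.6%) were in none of these 5 windows. A match of letters is a description and not a bound site.

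Saa1 and Saa2 are near copies of each other, and this bears on every value given for them. Their promoters were identical at 287 of 301 aligned positions, or 95.3%, and their reference transcripts at 572 of 609, or 93.9%. Of the 560 stretches of 50 bases in the Saa1 transcript, 74 also occurred in Saa2. The Saa1 and Saa3 transcripts were identical at 62.2% of aligned positions. The assay counts short probes, and the probe sequences were not used here, so reads of Saa1 and Saa2 could be split between them and each is reported as uncertain. Saa1, Saa2, Saa3 and Orm1 each rested on 1 probe with counts (a second Saa1 probe had 0 counts in all libraries), and 1 probe carried 99.9% of the counts of Lcn2. Hp was read by 3 probes with 22.4%, 68.7% and 8.93% of its counts, and Serpina3n by 2 probes with 67.3% and 32.7%. Because each gene has its own probes, levels are compared between samples and not between genes.

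Values are CPM, the count of a gene for each M counts of its library. Library totals were between 4.43 M and 8.05 M, so that 1 count is worth about 0.124 to 0.226 CPM. Airway and alveolar epithelial markers summed to 7146.6 to 88760.9 CPM in lungs and to 18.1 to 166.9 CPM in hearts, and cardiac muscle markers to 45.9 to 1295.5 CPM in lungs and 35873.9 to 51988.8 CPM in hearts, which fits the tissue labels. In 6 lung libraries, all at 24 h, fewer than 13000 genes had a count. The plate named in the sample titles runs largely with time: apart from 5 pine needles smolder lungs, every 4 h library was on plate 1, while each 24 h lung group had 1 library there and the rest on plate 2, except pine needles smolder with all 6 on plate 1, and every heart was on plate 2. For this reason levels at 4 h and at 24 h are each set against saline of the same time. Each library of a tissue is a separate animal by its title, and the p-values measure the spread between these animals.

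In saline lungs at 4 h, Saa1 and Saa2 were near the limit of detection, with 0.229 ± 0.288 and 0.139 ± 0.223 CPM (SD, n = 6), and 3 and 4 of the 6 libraries at 0. Saa3 had 8.30 ± 5.54 CPM, Orm1 4.00 ± 1.28 CPM and Serpina3n 4.25 ± 2.74 CPM in the same lungs. Lcn2, with 369.0 ± 299.8 CPM, and Hp, with 2013.5 ± 686.2 CPM, were well detected without any treatment. In saline lungs at 24 h Saa2 had 0 counts in all 6 libraries, Saa1 had 0.322 ± 0.438 CPM and Saa3 2.63 ± 2.60 CPM. Lcn2 had 78.4 ± 76.1 CPM and Hp 1322.6 ± 305.4 CPM there. The highest saline lung had 9.08 times the Serpina3n of the lowest at 4 h and 14.1 times at 24 h. For Lcn2 these ratios were 6.62 and 25.1, and for Hp 2.77 and 1.80.

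After LPS, 5 of the 7 genes rose in lung at 4 h. Saa3 had 749.3, 440.5, 2535.9 and 1241.3 CPM in the 4 LPS lungs, against a lowest, median and highest value of 2.81, 7.20 and 18.7 CPM in the 6 saline lungs. The lowest LPS lung was thus far above the highest saline lung. The log2 change was 7.34 ± 1.23 (SE; edgeR quasi-likelihood test, adjusted p = 2.33e-06). Saa1 had 194, 275, 646 and 217 counts in the 4 LPS lungs (53.2 ± 33.4 CPM, SD), against 0 to 4 counts in each of the 6 saline lungs (0.229 ± 0.288 CPM), a log2 change of 7.87 ± 1.14 (adjusted p = 4.49e-08). Saa2 had 9.63, 12.4, 38 and 9.24 CPM in LPS lungs and at most 0.510 CPM in saline lungs, with a log2 change of 6.88 ± 0.96 (adjusted p = 1.63e-08). LPS replicate 3 was the highest of the 4 animals in all 3 serum amyloid genes and in Lcn2. Across all 14458 genes tested in lung, 8.98% were called in this comparison at an adjusted p under 0.05. In whole tissue, more RNA per cell and more cells of a kind that express a gene cannot be told apart.

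Lcn2 and Serpina3n rose with the serum amyloid genes. Lcn2 had 3840.2, 3697.7, 10918.2 and 8085.5 CPM in LPS lungs at 4 h, against 143.0, 296.0 and 947.0 CPM (lowest, median, highest) in saline lungs, and the 2 groups did not overlap. Its log2 change was 4.31 ± 0.96 (adjusted p = 0.000607). Serpina3n had 32.1, 113.9, 107.3 and 54.2 CPM in LPS lungs, against 0.993, 3.49 and 9.02 CPM in saline lungs (lowest, median, highest), with a log2 change of 4.29 ± 0.65 (adjusted p = 1.37e-07). Both Serpina3n probes were called when tested alone, with log2 changes of 4.16 ± 0.66 and 4.46 ± 0.82.

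The other 2 genes did not pass the test at 4 h. Orm1 had 14.8, 18.3, 25.7 and 38 CPM in LPS lungs, each above the highest saline lung (5.77 CPM), but its log2 change of 2.69 ± 0.95 had an adjusted p of 0.0593. Hp had 3691.2, 1975.9, 2940.2 and 3026.7 CPM in LPS lungs, against 1183.1, 1863.1 and 3271.6 CPM (lowest, median, highest) in saline lungs. These overlap, and the log2 change of Hp was 0.62 ± 0.25 (adjusted p = 0.121). Both calls depended on the setting: Orm1 was past the threshold under 2 of 8 alternatives that change 1 choice (adjusted p 0.0081 to 0.0833), and Hp under 2 of 8 (0.0369 to 0.463).

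At 24 h, 6 of the 7 genes rose after LPS, in a comparison in which 12.1% of all genes were called. Saa3 had 475.4, 263.9, 253.6 and 252.0 CPM in LPS lungs, against 0, 1.41 and 6.57 CPM (lowest, median, highest) in saline lungs, and its log2 change was 7.17 ± 1.24 (adjusted p = 2.85e-06). Replicate 1, the highest, was the 1 LPS lung of this time on plate 1. Saa1 had 18.6, 12.5, 20.6 and 17.9 CPM in LPS lungs and at most 1.14 CPM in saline lungs, a log2 change of 6.03 ± 1.07 (adjusted p = 5.81e-06). Saa2 had 3.15, 4.59, 4.63 and 5.73 CPM in LPS lungs and 0 counts in every saline lung, so it was at least 55.1-fold higher, taking 3 counts over the saline group as its floor (adjusted p = 6.28e-08). In none of the 3 genes did an LPS lung fall within the saline range.

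Lcn2 had 2674.6, 1455.8, 2775.7 and 1721.4 CPM in LPS lungs at 24 h, against 8.16, 45.4 and 205.3 CPM (lowest, median, highest) in saline lungs, with a log2 change of 5.12 ± 0.99 (adjusted p = 3.54e-05). Serpina3n had 97.7, 61.6, 95.1 and 40.7 CPM in LPS lungs and at most 10 CPM in saline lungs, with a log2 change of 4.37 ± 0.65 (adjusted p = 4.44e-08). Orm1 had 11.8, 14.1, 18.5 and 12 CPM in LPS lungs, and 1 saline lung reached 10.4 CPM while the median was 0.567 CPM. Its log2 change of 2.91 ± 0.98 was called (adjusted p = 0.0338), but the call was lost under 3 of 8 alternatives (adjusted p up to 0.119). It was also lost in 7 of 10 fits that left out 1 lung, namely LPS replicate 2 or 3 or saline replicate 1, 2, 3, 4 or 5 (adjusted p up to 0.0859). Hp again overlapped, with 1361.2 ± 334.1 CPM in LPS lungs (SD, n = 4) and 1322.6 ± 305.4 CPM in saline lungs (SD, n = 6), and a log2 change of 0.22 ± 0.25 (adjusted p = 0.665). With plate 2 lungs alone at 24 h, 5 genes were called, all but Orm1 and Hp, and plate 1 held 1 LPS lung and 1 saline lung of this time, too few for a test.

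**Figure D1:**
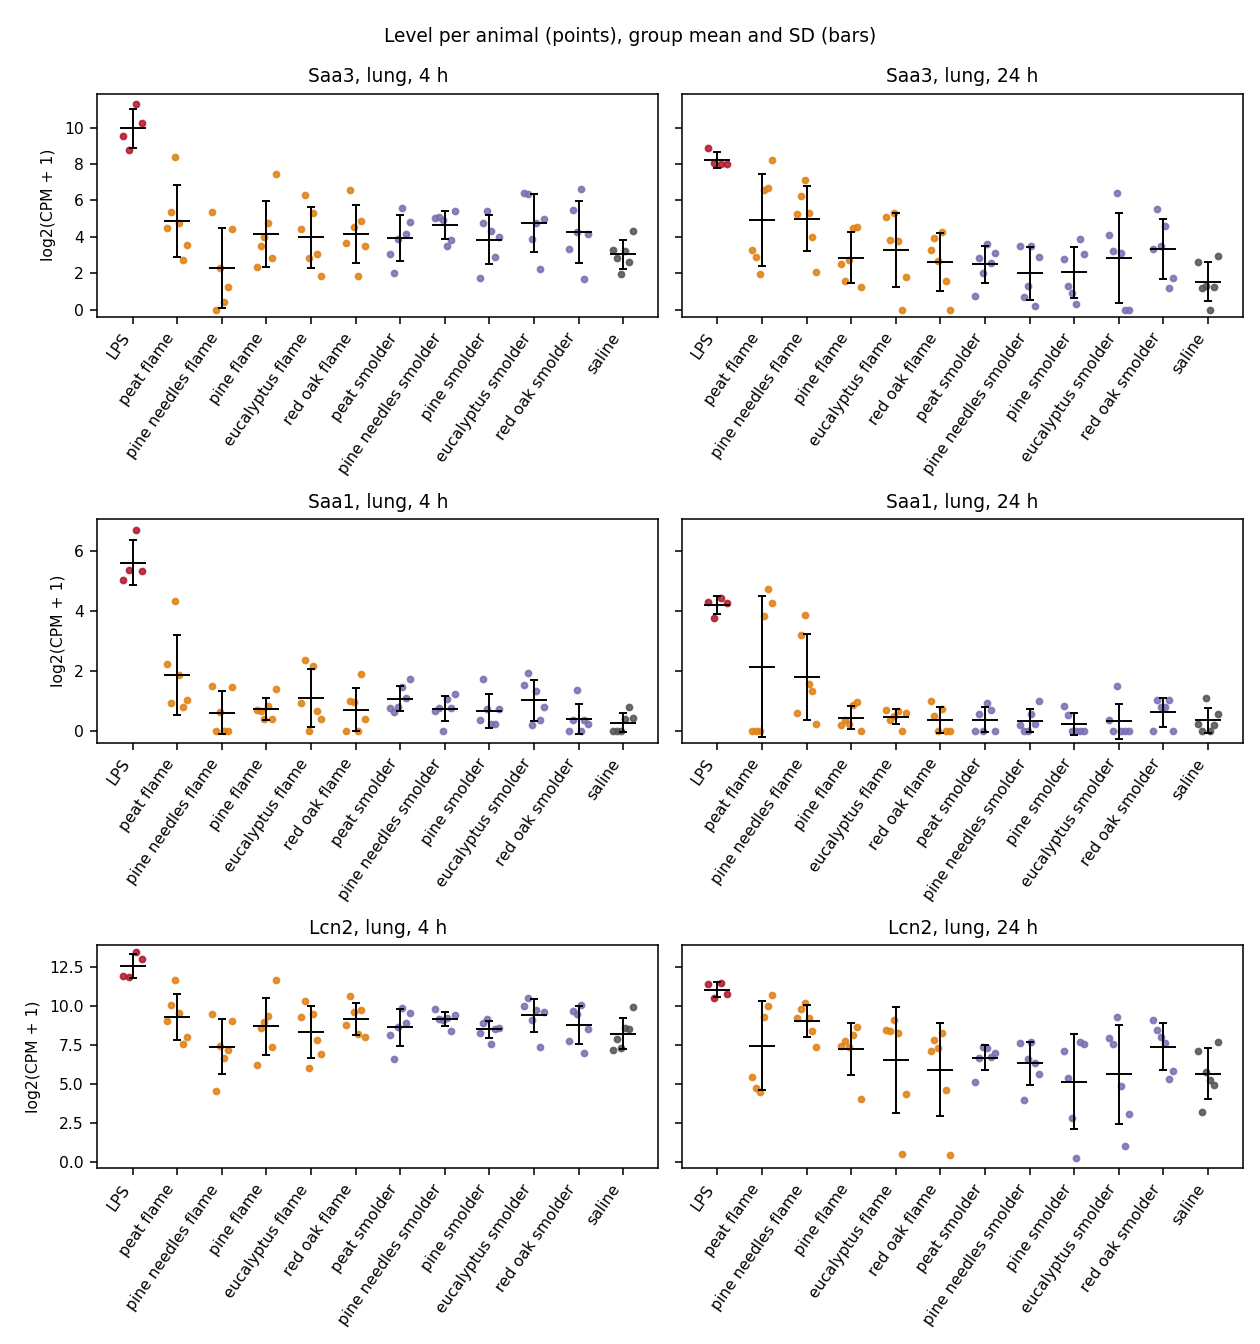
Level of Saa3, Saa1 and Lcn2 in every lung library at 4 h and 24 h, by group, on an axis of log2(CPM + 1). Points are animals (red LPS, orange flaming, purple smoldering, grey saline), and bars are the mean ± SD of the group. The 4 LPS lungs lie above every saline lung in each panel, and at 24 h Saa3 spans 2.95 to 295.4 CPM after peat flame and 0 to 85.5 CPM after eucalyptus smolder.

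No difference in the LPS change between 24 h and 4 h was called in any of the 7 genes, while 0.581% of all genes were called. The largest difference was that of Saa1, whose log2 change was lower at 24 h than at 4 h by 1.84 ± 1.59 (difference in log2 change -1.84, adjusted p = 0.87). The difference was 1.36 ± 1.03 for Saa2, 0.81 ± 1.28 for Lcn2, -0.39 ± 0.36 for Hp, 0.22 ± 1.34 for Orm1, -0.16 ± 1.57 for Saa3 and 0.08 ± 0.88 for Serpina3n. Apart from Hp, whose error was smaller, changes of severalfold between the times could not be resolved.

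The genes around the acute phase response moved with them after LPS. Of the inducing cytokines and their receptors, 8 of 14 tested rose at 4 h and none fell, among them Tnf (log2 change 4.34 ± 0.53), Il6 (4.83 ± 0.81), Il1b (5.23 ± 0.90) and the IL-1 antagonist Il1rn (4.46 ± 0.83). The median log2 change of this list was 1.61, against -0.044 over all genes. Of the inducing transcription factors and their feedback genes, 11 of 14 rose, with a median of 1.90. They included Zc3h12a (2.47 ± 0.25), whose product degrades cytokine mRNA, the NF-kB inhibitors Tnfaip3 (3.34 ± 0.42) and Nfkbia (2.38 ± 0.30), Socs3 (2.82 ± 0.47), which blocks IL-6 receptor signalling, and Cebpd (2.46 ± 0.45), the C/EBP factor of the acute phase. Of the receptors and partners of these proteins 4 of 13 rose, namely Cd14 (3.89 ± 0.60), the endotoxin co-receptor, Tlr2 (2.62 ± 0.55), Mmp9 (1.97 ± 0.41), which binds lipocalin 2, and Scarb1 (1.11 ± 0.31), which takes up lipid from high-density lipoprotein. At 24 h the counts were 8 of 14, 10 of 14 and 4 of 13, none fell, and Fpr2, a receptor for serum amyloid A, rose by 3.08 ± 0.53 on the log2 scale. All of these were called by edgeR at an adjusted p under 0.05. Over all genes, 8.98% were called after LPS at 4 h and 12.1% at 24 h.

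Of 15 other acute phase plasma protein genes tested, 6 rose after LPS at 4 h and 8 at 24 h, and none fell. The share called over all genes was 8.98% at 4 h and 12.1% at 24 h. The median log2 change was 1.78 at 4 h, against -0.044 over all genes, and 2.09 at 24 h, against -0.124. Serpina3g and Serpina3m, relatives of Serpina3n, had log2 changes of 3.78 ± 0.77 and 4.46 ± 1.03 at 4 h. Reads can be shared between members of this gene cluster. Hpx, which encodes the haem binder haemopexin, had 2.37 ± 0.69 at 4 h and 2.09 ± 0.72 at 24 h, and Lrg1 had 2.07 ± 0.65 at 4 h. C3, the third component of complement (2.18 ± 0.34), Itih4 (2.51 ± 0.39) and Orm2, a near copy of Orm1 (4.15 ± 1.08), were called at 24 h. These lists, like the 7 genes, were drawn up with earlier results of the same data known.

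Markers of other cells moved in the same lungs, where 8.98% of all genes were called at 4 h and 12.1% at 24 h. Neutrophil markers, 14 genes, summed to 867.9 to 2115.6 CPM in LPS lungs at 4 h and to 205.3 to 668.5 CPM in saline lungs, and 9 of 13 tested rose. At 24 h the sums were 1203.6 to 1711.3 CPM in LPS lungs and 171.6 to 353.8 CPM in saline lungs, and 10 of 13 rose. Hepatocyte markers, 12 genes, were near 0: they summed to 10.8 to 21.4 CPM in LPS lungs at 4 h and 4.44 to 11.6 CPM in saline lungs, with 1 of 4 tested, Alb, called (1.24 to 2.39 CPM in LPS lungs, 0 to 0.170 CPM in saline lungs). At 24 h none of the 4 was called. Of the airway and alveolar epithelial markers 4 of 11 fell at 24 h, with sums of 11138.9 to 25791.9 CPM in LPS lungs and 32434.8 to 56108.1 CPM in saline lungs. Of 8 alveolar macrophage markers tested 2 rose and 1 fell at 24 h, with sums of 581.8 to 1045.0 CPM in LPS lungs and 399.7 to 1652.0 CPM in saline lungs. Of 8 cardiac muscle markers tested 3 fell at 24 h, namely Tnni3 (log2 change -2.24 ± 0.61), Ryr2 (-2.05 ± 0.64) and Myh6 (-2.24 ± 0.76), with sums of 100.2 to 131.3 CPM in LPS lungs and 208.6 to 766.7 CPM in saline lungs. Of 5 fat cell markers tested Cfd (-6.16 ± 1.91) and Cidec (-3.07 ± 1.01) fell at 24 h, with sums of 1.10 to 1.93 CPM in LPS lungs and 3.73 to 19.2 CPM in saline lungs. At 4 h none of the cardiac muscle, fat cell, epithelial or alveolar macrophage markers was called. The part of these cell types in the changes of the 7 genes was not tested.

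Calls after the smokes were few, both for these genes and over all genes. The 10 smokes at 2 times gave 20 comparisons with saline and 140 tests of the 7 genes in lung. Of these tests 4 were called, all of them higher and all after peat flame. Over all genes, 0.297% were called after peat flame at 4 h and 0.0692% at 24 h, and 0.00692% after pine needles flame at 24 h. The calls of each peat flame comparison are given below beside its own share. The genes were chosen with earlier results known, and reads of Saa1 and Saa2 could be split between them, so their calls are not separate evidence. In the 17 smoke comparisons other than peat flame at both times and pine needles flame at 24 h, no test of these genes was called, against 0.115% of all gene tests (0 to 253 genes per comparison).

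After peat flame at 4 h Saa1 was the 1 gene of the 7 that was called. It had 0.728, 1.83 and 19.1 CPM in the 6 peat flame lungs (lowest, median, highest), against 0, 0.160 and 0.714 CPM in saline lungs, so that each peat flame lung was above every saline lung. The log2 change was 4.19 ± 1.04 (adjusted p = 0.0365), in a comparison in which 0.297% of all genes were called. Saa2 was also above every saline lung in all 6 animals, with 0.517, 0.970 and 4.11 CPM in peat flame lungs (lowest, median, highest) and at most 0.510 CPM in saline lungs, but its change of 3.23 ± 0.89 had an adjusted p of 0.118. Saa3 had 5.54, 23.8 and 333.5 CPM in peat flame lungs and 2.81, 7.20 and 18.7 CPM in saline lungs (lowest, median, highest). These groups overlap, and the change was 3.06 ± 1.0 (adjusted p = 0.295).

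One animal led this group, though the outlier criterion given below flagged none of its values. Peat flame replicate 3 was the highest of its group in 6 of the 7 genes, with 19.1 CPM of Saa1, 4.11 of Saa2, 333.5 of Saa3, 3161.3 of Lcn2, 12.5 of Orm1 and 33.1 of Serpina3n. Its neutrophil markers summed to 642.2 CPM, also the highest of the 6 but within the 205.3 to 668.5 CPM of saline lungs. Its 15427 detected genes were within the range of the others (15014 to 15628). Without this animal the log2 change of Saa1 was 2.81 (adjusted p = 0.7), and the call was also lost without saline replicate 1, 2, 3, 4 or 6, while over the 12 fits that left out 1 library the adjusted p was 0.0219 to 0.7. Lcn2 had 979.5 ± 1113.7 CPM in peat flame lungs and 369.0 ± 299.8 CPM in saline lungs (SD, n = 6) and was not called. Serpina3n (13.4 ± 10.5 CPM in peat flame lungs and 4.25 ± 2.74 CPM in saline lungs), Orm1 (3.91 ± 4.32 CPM in peat flame lungs and 4.00 ± 1.28 CPM in saline lungs) and Hp (2141.5 ± 570.2 CPM in peat flame lungs and 2013.5 ± 686.2 CPM in saline lungs) were not called either.

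At 24 h peat flame split its own group. Saa3 had 8.85, 6.35 and 2.95 CPM in replicates 1 to 3 and 93.8, 100.2 and 295.4 CPM in replicates 4 to 6, against 0, 1.41 and 6.57 CPM (lowest, median, highest) in saline lungs. Saa1 had 0 counts in replicates 1 to 3 and 13, 25.7 and 18.1 CPM in replicates 4 to 6, against 0, 0.156 and 1.14 CPM in saline lungs. Saa2 had 0.610, 0, 0, 3.10, 2.34 and 3.11 CPM in the 6 peat flame lungs and 0 counts in every saline lung. Lcn2 followed the same division, with 42.3, 25.8 and 21.8 CPM in the first 3 and 625.6, 992.2 and 1647.4 CPM in the others, and saline lungs reached 205.3 CPM. In 3 of 6 peat flame animals these 4 genes were therefore above every saline lung, and in the other 3 they were at or near the saline range.

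The 3 serum amyloid genes were called over the whole group of 6, against 0.0692% of all genes. The log2 change was 4.70 ± 1.01 for Saa1 (adjusted p = 0.0193) and 4.94 ± 1.11 for Saa3 (adjusted p = 0.0314). Saa2 was at least 20.1-fold higher (adjusted p = 0.00347). Lcn2, with a change of 2.92 ± 0.88, was not called (adjusted p = 0.385), and neither were Orm1 (1.60, adjusted p = 0.67) and Serpina3n (1.59 ± 0.57, adjusted p = 0.572). Hp had 2111.4 ± 337.0 CPM in peat flame lungs and 1322.6 ± 305.4 CPM in saline lungs (SD, n = 6), with 5 of 6 animals above every saline lung, and was not called (0.82 ± 0.23, adjusted p = 0.262). The Saa2 call held under all 8 alternatives and in all 12 fits that left out 1 peat flame or saline lung (adjusted p 0.0011 to 0.0362), whereas Saa1 was lost in 6 of those 12 fits and Saa3 in 8. Saa2 passed the count filter through exposed lungs, as saline lungs had at most 0.510 CPM at 4 h and 0 counts at 24 h. Its entry into the test thus depended on groups where it was high, which limits the call. The 8 alternatives include a fit with no filter beyond 1 count. Saa1 was lost without peat flame replicate 5 or saline replicate 1, 2, 4, 5 or 6 (adjusted p up to 0.108), and Saa3 without peat flame replicate 5 or 6 or any 1 saline lung (adjusted p up to 0.162). Saa1 was also lost under 1 of 8 alternatives (adjusted p = 0.144) and Saa3 under 4 of 8 (up to 0.107). The lungs of replicates 1 to 3 had 13746, 13159 and 12145 detected genes and those of replicates 4 to 6 had 15048, 14859 and 15421. Neutrophil markers summed to 218.5, 180.6 and 102.6 CPM in replicates 1 to 3 and to 277.9, 372.0 and 337.6 CPM in replicates 4 to 6, within or near the 171.6 to 353.8 CPM of saline lungs. Replicate 1 was on plate 1 and the others on plate 2. Cardiac muscle markers summed to 777.6, 624.9 and 929.3 CPM in replicates 1 to 3 and to 407.5, 219.7 and 284.0 CPM in replicates 4 to 6, and to 208.6 to 766.7 CPM in saline lungs. Epithelial markers summed to 44389.9, 45764.8 and 32060.0 CPM in replicates 1 to 3 and to 45058.3, 44118.2 and 44472.7 CPM in replicates 4 to 6. The part of detection, neutrophils and cardiac muscle in this split was not tested.

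**Figure D2:**
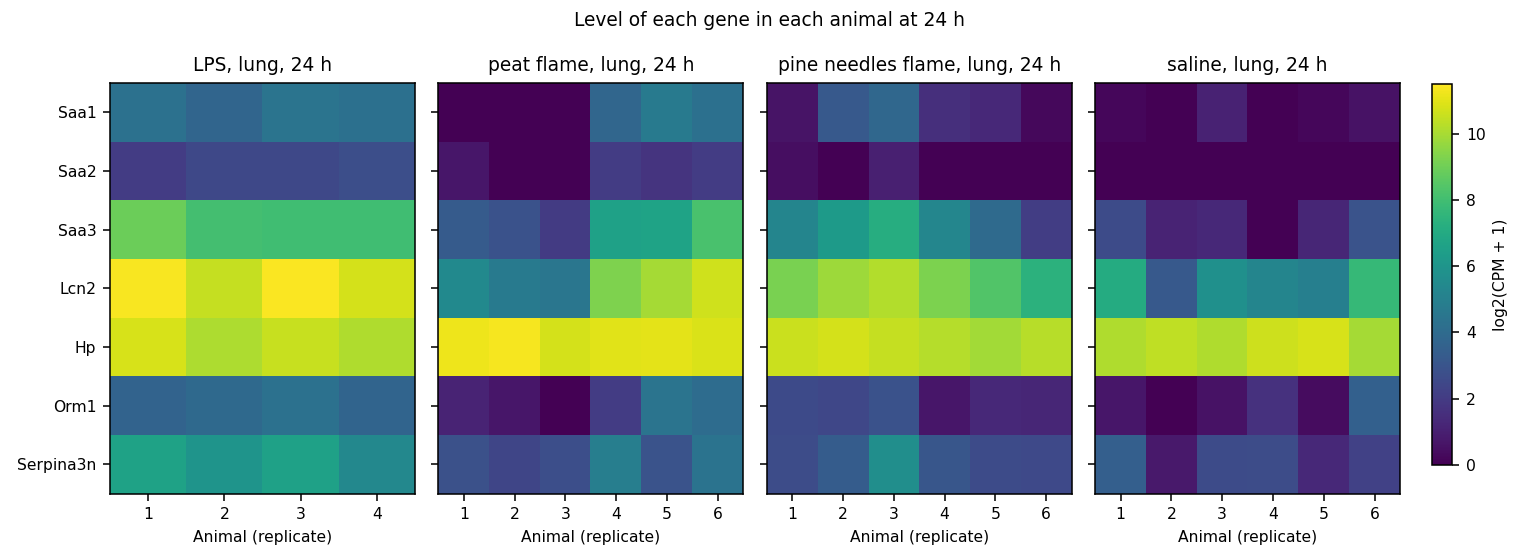
The 7 genes in each animal at 24 h after LPS, peat flame, pine needles flame and saline, with a row per gene, a column per animal and the level as colour in log2(CPM + 1). After peat flame 3 animals reach 93.8 to 295.4 CPM of Saa3 and 3 have 2.95 to 8.85 CPM, while Hp shows no such division.

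After pine needles flame at 24 h none of the 7 genes was called, though its mean came next after LPS and peat flame in Saa1 and Saa3 and next after LPS in Lcn2 and Serpina3n. Saa3 had 3.21, 37.7 and 141.3 CPM in these lungs and 0, 1.41 and 6.57 CPM in saline lungs (lowest, median, highest), and 5 of 6 animals were above every saline lung. Lcn2 had 165.9, 591.0 and 1140.3 CPM in pine needles flame lungs and 8.16, 45.4 and 205.3 CPM in saline lungs, also with 5 of 6 animals above. Saa1 had 4.29 ± 5.37 CPM in pine needles flame lungs and 0.322 ± 0.438 CPM in saline lungs (SD, n = 6). The changes were 4.12 ± 1.08 for Saa3, 3.43 ± 1.0 for Saa1 and 2.91 ± 0.87 for Lcn2 (adjusted p = 0.165 for all 3), 3.53 ± 1.37 for Saa2 and 1.53 ± 0.57 for Serpina3n (adjusted p = 0.168 for both), 0.31 ± 0.90 for Orm1 and -0.22 ± 0.23 for Hp, in a comparison in which 0.00692% of all genes, 1 gene, were called. Without the 6 lung libraries of few detected genes, none of which is in this group or in saline, the adjusted p of Saa3, Saa1 and Lcn2 was 0.0324, and DESeq2 called Saa3 (adjusted p = 0.038). Hp had 1340.5 ± 272.0 CPM in pine needles flame lungs and 1322.6 ± 305.4 CPM in saline lungs. Alveolar macrophage markers summed to 1039.8 to 5236.9 CPM in pine needles flame lungs and 399.7 to 1652.0 CPM in saline lungs, and neutrophil markers to 264.5 to 766.1 CPM in pine needles flame lungs and 171.6 to 353.8 CPM in saline lungs, with none called, and their part was not tested.

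The order of the groups was alike in several genes at its top only. LPS had the highest mean of the 12 lung groups at 4 h in all 7 genes, and its range did not overlap that of the next group except in Hp. At 24 h LPS was first in 6 genes, apart from the next group in Saa2 and Lcn2, and peat flame was first in Hp (2111.4 ± 337.0 CPM, SD, n = 6). Peat flame was second in Saa1, Saa2 and Saa3 at both times, with 4.67 ± 7.17, 1.54 ± 1.38 and 72.9 ± 128.2 CPM at 4 h and 9.47 ± 11.1, 1.52 ± 1.49 and 84.6 ± 112.5 CPM at 24 h (SD, n = 6). Below LPS every group overlapped the next one in the order. In the other smokes at 24 h, except pine needles flame, the mean of Saa3 was 4.80 to 19.7 CPM and the mean of Saa1 0.201 to 0.585 CPM.

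The 10 smokes differed among themselves at 24 h in all 7 genes, where 18% of all genes did. The adjusted p was 3.47e-07 for Saa1, 6.85e-07 for Saa2, 0.000869 for Serpina3n, 0.00115 for Saa3, 0.00657 for Hp, 0.0299 for Lcn2 and 0.0435 for Orm1 (edgeR quasi-likelihood F test over the 10 groups). At 4 h none of the 7 was called among the smokes, the closest being Saa1 (adjusted p = 0.203), against 0.609% of all genes. When each time was fitted alone, 4 of the 7 were called at 24 h in place of all 7.

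Flaming and smoldering smokes were then compared as the mean of the 5 fuels in each phase. None of the 7 genes was called at 4 h, where 2.39% of all genes were, or at 24 h, where 0.111% were. At 4 h the differences of flaming minus smoldering were 1.01 ± 0.40 for Saa2, 0.76 ± 0.43 for Saa1, 0.42 ± 0.25 for Serpina3n, 0.19 ± 0.42 for Saa3, 0.08 ± 0.37 for Lcn2, -0.16 ± 0.10 for Hp and -0.48 ± 0.41 for Orm1. At 24 h they were 1.67 ± 0.42 for Orm1 (adjusted p = 0.0871), 0.97 ± 0.26 for Serpina3n (0.131), 1.65 ± 0.51 for Saa1 (0.322), 1.39 ± 0.44 for Saa3 (0.336), 1.18 ± 0.38 for Lcn2 (0.363), 1.5 ± 0.71 for Saa2 (0.742) and 0.14 ± 0.10 for Hp (0.973). DESeq2 called Orm1 and Serpina3n at 24 h (adjusted p = 0.0396 for both). Orm1 averaged 2.18 to 6.85 CPM after the 5 flaming smokes and 0.784 to 1.35 CPM after the 5 smoldering ones, and 2.33 ± 4.03 CPM after saline (SD, n = 6). Within peat, the flaming phase was higher than the smoldering phase in Saa1 at 24 h, with 9.47 ± 11.1 CPM after peat flame and 0.328 ± 0.386 CPM after peat smolder (SD, n = 6), a log2 difference of 4.76 ± 1.0 (adjusted p = 0.0178), where 0.0622% of all genes were called. This call was lost with plate 2 lungs alone, with 24 h fitted alone (adjusted p = 0.164) and without peat flame replicate 5 (0.0615). The other 6 genes were not called (adjusted p 0.119 to 0.182), and at 4 h none of the 7 was, where 0.0899% of all genes were.

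LPS was also set against peat flame at 4 h. Saa1 (log2 difference 3.69 ± 0.90, adjusted p = 0.00345), Saa2 (3.65, 0.000635), Saa3 (4.28, 0.00519), Lcn2 (2.95 ± 0.92, 0.0391) and Serpina3n (2.70, 0.0011) were higher after LPS, where 4.6% of all genes were called. The Lcn2 call was lost under 2 of 8 alternatives and without LPS replicate 3 or 4 or peat flame replicate 1, 2, 4, 5 or 6, with adjusted p up to 0.142. Hp (0.63, adjusted p = 0.173) and Orm1 (2.81, adjusted p = 0.0713) were not called. A difference in the peat flame change between 24 h and 4 h was called in none of the 7, where 0.0622% of all genes were. The smallest adjusted p was that of Hp, with a difference of 0.83 ± 0.32 (adjusted p = 0.863). The widest difference was that of Saa2, at 3.22 ± 1.52 (adjusted p = 0.949), followed by Saa3 (1.88 ± 1.37), Orm1 (1.73 ± 1.25), Lcn2 (1.57 ± 1.16), Saa1 (0.51 ± 1.67) and Serpina3n (0.00 ± 0.78). No gene of the cytokine, transcription factor, receptor or plasma protein lists was called after peat flame at either time.

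**Figure D3:**
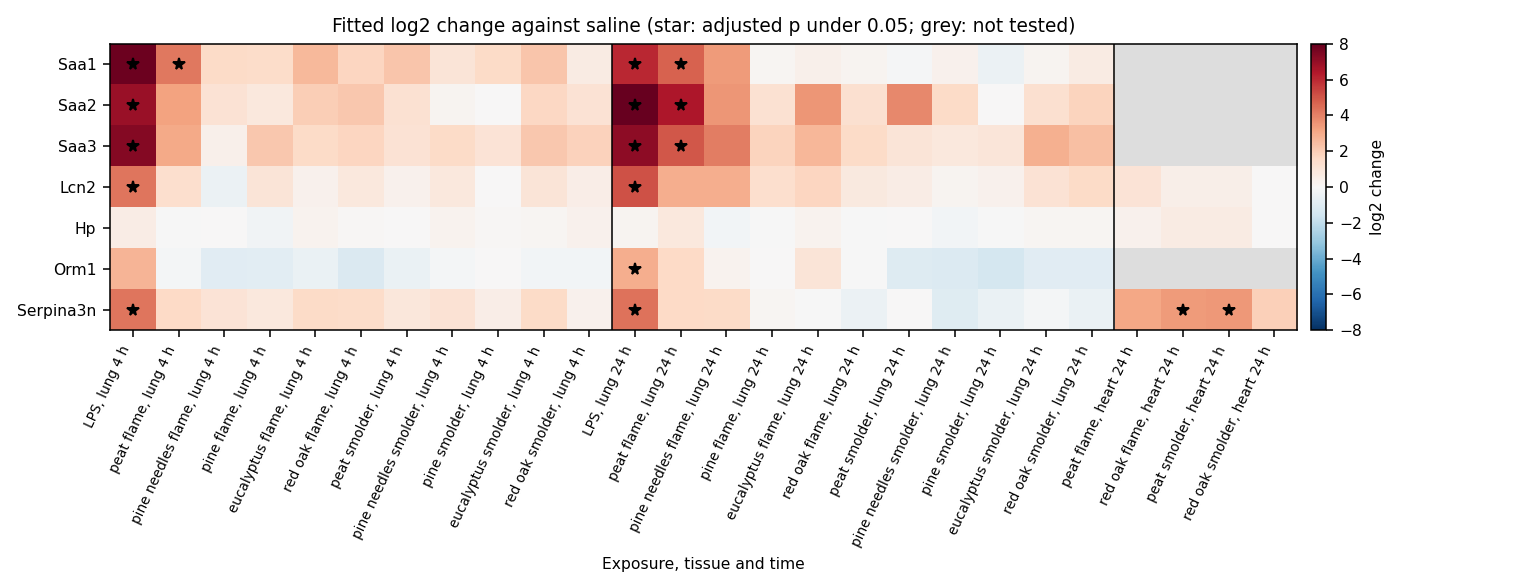
Log2 change of the 7 genes after LPS and each smoke against saline, by tissue and time, as colours with a scale in log2 units. Stars mark an adjusted p under 0.05, and grey cells were not tested. The stars of the lung fall in the LPS columns and in peat flame, and those of the heart on Serpina3n.

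Within groups, the same animals were high in several of the genes. The relation was taken over all lungs given smoke or saline, which are the 140 lungs less the 8 given LPS, after subtracting each group's mean of log2(CPM + 1), and 21 pairs of genes were tested. Saa3 and Lcn2 were the closest pair, with Pearson's r = 0.85 and Spearman's rho = 0.88 (permutation test, p = 1e-05, the smallest that 100000 resamples can give, adjusted p = 1.5e-05 for r). Without the 2 lungs farthest from the median of Saa3 r was 0.84, and it was 0.86 within plate 1 and 0.87 within plate 2. Saa1 and Saa3 had r = 0.66 (rho = 0.67, 0.66 and 0.67 within the plates), Saa1 and Saa2 0.65 (0.47, 0.53 and 0.80), Saa3 and Orm1 0.65 (0.64, 0.60 and 0.70), and Lcn2 and Orm1 0.60 (0.59, 0.53 and 0.67). In all, 18 of 21 pairs had an adjusted p under 0.05. The other 3 each involved Hp, with r = 0.05 for Saa1, 0.07 for Saa2 and 0.04 for Serpina3n (adjusted p 0.487 to 0.619). Pairs of other genes were not tested, so no share over all genes can be set beside this count. Whether it is particular to these genes was not tested. Lcn2 and Hp had r = 0.51, which was 0.24 within plate 1, 0.64 within plate 2 and 0.38 without the 2 farthest lungs. Libraries share their depth and detection, and without the 6 of few detected genes that value was 0.24 while Saa3 and Lcn2 kept 0.85.

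**Figure D4:**
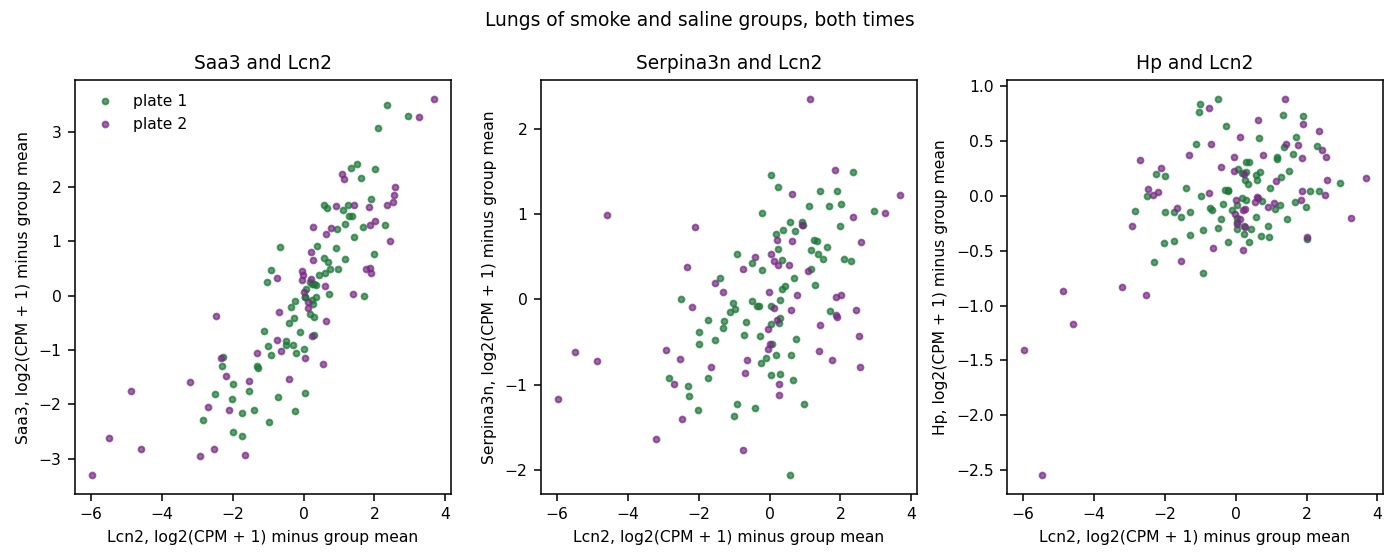
Deviation of Saa3, Serpina3n and Hp from the mean of the animal's group against that of Lcn2, over all smoke and saline lungs, both in log2(CPM + 1) and coloured by plate. Saa3 follows Lcn2 closely (r = 0.85), Serpina3n less so (r = 0.45) and Hp over a narrow range (r = 0.51).

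Across the group means, the genes most like Saa3 among all tested were Ccl2 (Pearson's r = 0.931 over 24 lung groups), Cfb (0.930), Mab21l3 (0.927), Il1b (0.927) and Mthfd2 (0.924). Without the 2 LPS groups they were Vnn3 (0.837 over 22 groups), Itm2c (0.821), Mthfd2 (0.815), Cfb (0.813) and Ccl7 (0.783). Those most like Lcn2 were Ccl12 (0.966 over 24 groups), Mthfd2 (0.951), Sod2 (0.950), Msr1 (0.949) and Nfkbie (0.944), and without LPS Lrg1 (0.954), Ccl12 (0.952), Mthfd2 (0.945), Iars (0.941) and Bhlhe40 (0.938). Ccl2, Ccl7 and Ccl12 encode chemokines that draw monocytes, and Cfb encodes complement factor B. The points are group means that share plates and times, and no test was made. Of the other 6 genes, Hp had an r of 0.473 with Saa3 over 24 groups and the other 5 had 0.904 to 0.937. Without the LPS groups Hp had 0.669, close to Saa2 at 0.680, and the others reached 0.845. With Lcn2 over those 22 groups Hp had 0.808, above Saa1 (0.532) and Saa2 (0.563).

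In heart, 3 of the 7 genes were frequent enough to be tested at 24 h. The serum amyloid genes were all but absent: Saa1 had 0 to 5 counts and Saa2 0 to 2 counts over the 6 hearts of each group, and Saa3 had at most 4.96 CPM in any heart. Orm1 had 3 to 11 counts per group. These 4 genes were below the filter and got no test. The highest Saa3 was in red oak flame hearts, with 1.57 ± 2.00 CPM there and 0.373 ± 0.386 CPM in saline hearts (SD, n = 6).

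Serpina3n was called higher in red oak flame and peat smolder hearts, though it passed the count filter only through hearts exposed to smoke. In red oak flame hearts it had 0.750, 1.74 and 2.88 CPM (lowest, median, highest), against 0, 0.0700 and 0.352 CPM in saline hearts, or 69 counts over 6 red oak flame hearts and 5 over 6 saline hearts. Each red oak flame heart was above every saline heart. The log2 change was 3.40 ± 0.68 (adjusted p = 0.00277), in a comparison in which 12% of 11179 genes were called. In peat smolder hearts it had 0.697, 1.19 and 4.38 CPM (lowest, median, highest), again above every saline heart, with a log2 change of 3.49 ± 0.67 (adjusted p = 0.00535) where 4.29% of all genes were called.

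Peat flame hearts had 0.430, 1.49 and 2.04 CPM of Serpina3n (lowest, median, highest), above every saline heart in 6 of 6 animals, but the change of 3.07 ± 0.69 was not called (adjusted p = 0.0889) where 0.0447% of all genes were. Red oak smolder hearts had 0.152, 0.554 and 1.02 CPM, 3 of 6 above every saline heart, with a change of 1.90 ± 0.78 (adjusted p = 0.74) where 0% of all genes were called. Its level is low, at 5 to 71 counts per group. Both calls held in all 12 fits that left out 1 of the libraries compared (adjusted p up to 0.0225). DESeq2 gave Serpina3n no adjusted p in these 2 comparisons, and its log2 changes were 3.55 ± 0.80 in red oak flame hearts and 3.66 ± 0.79 in peat smolder hearts. The gene did not pass the count filter when its probes were taken apart or when only the compared groups were fitted, so no test was made there. In the main fit it passed through exposed hearts, as saline hearts had at most 0.352 CPM. Its entry into the test thus depended on groups where it was high, which limits both calls. With no filter beyond 1 count both calls were kept (edgeR, adjusted p up to 0.00539).

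In the lungs of the same groups Serpina3n was not called. In red oak flame lungs at 24 h it had 2.74 ± 1.69 CPM, against 4.42 ± 3.33 CPM in saline lungs (SD, n = 6), with a log2 change of -0.49 ± 0.60 (adjusted p = 0.885), and in peat smolder lungs 4.54 ± 3.37 CPM, with a log2 change of 0.06 ± 0.57 (adjusted p = 1). The difference between the tissues was not tested. Hepatocyte markers summed to 3.01 to 76.9 CPM in red oak flame hearts, 4.25 to 37.1 CPM in peat smolder hearts and 3.64 to 10.9 CPM in saline hearts, with none of 3 called, and neutrophil markers to 72.3 to 91.4 CPM in red oak flame hearts, 68 to 102.3 CPM in peat smolder hearts and 40.9 to 112.1 CPM in saline hearts, with none of 3 called. Adipoq, which marks fat cells, had 0.177 to 32.2 CPM in red oak flame hearts, 1.71 to 18.6 CPM in peat smolder hearts and 0 to 6.95 CPM in saline hearts, and none of the 4 fat cell markers tested was called. Of 8 cardiac muscle markers tested, Myl2 (log2 change -0.66 ± 0.16) and Myl3 (-0.61 ± 0.17) fell in red oak flame hearts and Myl2 (-0.65 ± 0.16) in peat smolder hearts. Over all genes, 12% were called in red oak flame hearts and 4.29% in peat smolder hearts. The sums of the cardiac list were 35873.9 to 49095.4 CPM in red oak flame hearts, 41170.6 to 48893.5 CPM in peat smolder hearts and 45338.4 to 51988.8 CPM in saline hearts. The list of alveolar macrophage markers is not specific to that cell in heart. Of its 4 genes tested, Siglec1 rose in red oak flame hearts (1.79 ± 0.40, adjusted p = 0.00492) and none was called in peat smolder hearts. The list summed to 693.9 to 1395.5 CPM in red oak flame hearts, 1000.6 to 1309.6 CPM in peat smolder hearts and 851.3 to 2028.2 CPM in saline hearts. The part of any cell type in the Serpina3n values was not tested.

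The other 2 genes were not called by edgeR in any comparison of smoke and saline hearts. Lcn2 had 9.89, 17.1 and 30 CPM in peat flame hearts and 4.58, 8.07 and 11.9 CPM in saline hearts (lowest, median, highest), with 5 of 6 peat flame animals above every saline heart and a change of 1.09 ± 0.28 (adjusted p = 0.165), which DESeq2 called (adjusted p = 0.0367). It had 12.9 ± 2.77 CPM in red oak flame, 12.8 ± 5.47 CPM in peat smolder, 8.75 ± 3.77 CPM in red oak smolder and 8.13 ± 2.58 CPM in saline hearts (SD, n = 6). Hp had 3.60 ± 3.38 CPM in red oak flame, 3.53 ± 2.52 CPM in peat smolder, 2.70 ± 0.732 CPM in peat flame, 2.13 ± 1.03 CPM in red oak smolder and 2.00 ± 0.484 CPM in saline hearts. Between the flaming and smoldering phases of the 2 fuels none of these 3 genes was called (adjusted p 0.179 to 0.852), where 0.0358% of all genes were.

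Of the inducing transcription factors, 4 of 13 tested rose in red oak flame hearts, where 12% of all genes were called, and 2 of 13 in peat smolder hearts, where 4.29% were. They are named here after their values were seen. Cebpd had 34.2 ± 9.0 CPM in red oak flame hearts, 39.9 ± 21.6 CPM in peat smolder hearts and 16.7 ± 3.50 CPM in saline hearts (SD, n = 6), with a log2 change of 0.84 ± 0.25 after red oak flame (adjusted p = 0.0298) and of 1.10 ± 0.25 after peat smolder (adjusted p = 0.0153). Cebpa rose by 0.89 ± 0.20 on the log2 scale after red oak flame and by 0.94 ± 0.20 after peat smolder, and Nfkb1 (0.39 ± 0.10) and Stat3 (0.44 ± 0.13) rose in red oak flame hearts. The median of the list was 0.39 after red oak flame and 0.12 after peat smolder, against 0.031 and 0.001 over all genes. Of the cytokine list Tnfrsf1a (0.60 ± 0.13) was the 1 of 6 called in red oak flame hearts, a share near the 12% over all genes, and none was called in peat smolder hearts. Of the 4 tested plasma protein genes none was called in any heart group.

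**Figure D5:**
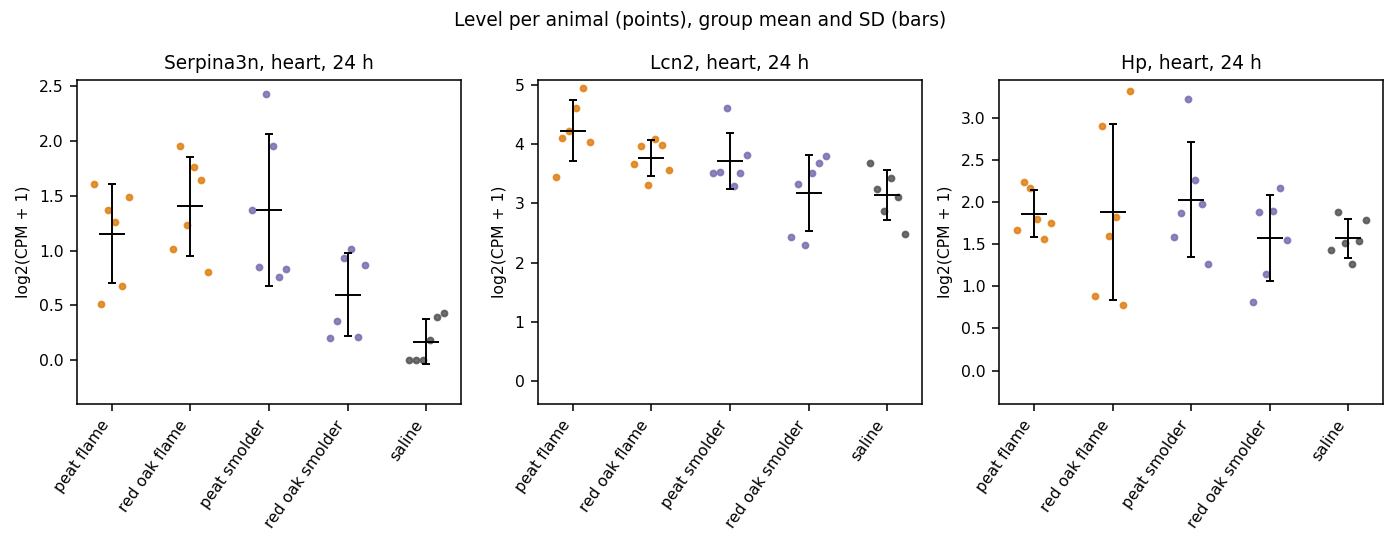
Serpina3n, Lcn2 and Hp in every heart library at 24 h, by group, as log2(CPM + 1), with 1 point per animal (orange flaming, purple smoldering, grey saline) and the group's mean ± SD. All 6 hearts of red oak flame, peat flame and peat smolder lie above the highest saline heart (0.352 CPM) in Serpina3n, and the groups overlap in Lcn2 and Hp.

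Heart and lung of the saline animals at 24 h were compared to give the resting difference. The fit did not pair the 2 tissues of an animal and had no plate term, though 1 of the lungs was on plate 1. Hp and Lcn2 were also called with the animal as a replicate block. Hp was lower in heart, with 2.00 ± 0.484 CPM in heart and 1322.6 ± 305.4 CPM in lung (SD, n = 6 animals), a log2 change of -8.69 ± 0.32 (adjusted p = 5.54e-11). Lcn2 was lower too, with 8.13 ± 2.58 CPM in heart and 78.4 ± 76.1 CPM in lung, a log2 change of -2.41 ± 0.55 (adjusted p = 0.000941). In this comparison 76.5% of 11821 genes were called. Over the 30 animals with both tissues, the heart and lung levels of 1 animal showed no relation within groups that passed the adjusted threshold. Pearson's r was 0.31 for Serpina3n (rho = 0.30, permutation p = 0.09, adjusted 0.135), 0.04 for Lcn2 (rho = 0.06, permutation p = 0.825, adjusted 0.825) and -0.43 for Hp (rho = -0.18, permutation p = 0.0223, adjusted 0.0669). Without the 2 animals farthest from the median r was 0.32 for Serpina3n and -0.07 for Hp, whose value thus rested on those 2. With the lungs on plate 2 alone (25 animals) r was 0.42 for Serpina3n (permutation test, adjusted p = 0.0794), -0.01 for Lcn2 (0.962) and -0.41 for Hp (0.0794).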

How the data were processed

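The values are whole-number counts per probe, deposited by the authors for 170 libraries of mouse lung and heart. Per the submitters' processing notes, Bowtie and DESeq2 were used, while for versions, settings and the genome build the sources used here give nothing. Per the labels' protocols the assay was TempO-Seq, in which probes are counted, and a QuantSeq 3' kit is named as well. The rows are named by a gene symbol and a probe number, and all columns were used.

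Counts of 1 symbol were summed and levels are CPM of the library total. Differences were tested with edgeR 4.0.16 in R 4.3.3 (quasi-likelihood F test, TMM factors, filterByExpr), in 1 fit of 140 lung libraries with group and plate terms, 1 fit of 30 hearts with group terms, and 1 fit of the 12 saline libraries at 24 h for heart against lung. Benjamini-Hochberg adjustment ran over the 14458, 11179 or 11821 genes of a fit, and a gene is called under 0.05. Standard errors were taken as the log2 change over the root of its F. Relations between genes used log2(CPM + 1) less the group mean and 100000 permutations. Heart and lung were paired by the animal number in the titles. Libraries of 1 group were compared for repeats, and any 2 of them differed in 13635 genes or more.

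Alternatives were each time alone, 1 plate per time, no plate term, only the heart groups compared, each probe alone, no filter beyond 1 count, the animal as a replicate block, DESeq2 1.42.0 (Wald test) or its size factors in edgeR, no lung of fewer than 13000 detected genes, and leaving out each library of the main comparisons. Leaving out exposed hearts, and relations without lungs of few detected genes, were chosen after seeing the data. All 7 genes were tested in every lung comparison, those not called are in part given as ranges or counts, and from each list up to 6 called genes of smallest p in the LPS comparisons may be named. The 5 genes most like Saa3 and Lcn2 are those of highest r over group means, leaving out the 7 genes. The members and lists were chosen with earlier results of these data known. The tests were tested on simulated data with the same spread for every gene. Changes were set only in genes of more counts than Saa2 or, in heart, Serpina3n had, so the simulation does not cover these. Promoters were matched by symbol in a RefSeq table, with 5 of 7 found, and Hp and Orm1 are named only.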

Additional observations from a re-analysis of the deposited data

Results flagged for a closer look

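In 21 of 197 sets of 1 gene in 1 group, the highest or lowest library lay apart from the others of its group by Dixon's criterion on log2(CPM + 1). Chance gives about 1 in 20 for normally distributed values. That rate does not hold for counts near 0, where 1 library with a count is always flagged if the rest have 0. The number of flags is therefore not read as an excess. Of the 21 sets, 13 were of Saa1 or Saa2 and rested on 1 to 16 counts, 4 of them on 1 count. Saa1 stood high in red oak smolder replicate 3 (1.54 CPM) and pine smolder replicate 2 (2.30 CPM) at 4 h, in eucalyptus smolder replicate 3 at 24 h (1.78 CPM), and in the hearts of peat flame replicate 4 (0.464 CPM) and red oak smolder replicate 5 (0.636 CPM). Saa2 stood high in pine needles flame replicate 5 at 4 h (1.55 CPM). At 24 h it did so in red oak smolder replicate 3 (0.292 CPM), pine needles smolder replicate 1 (0.293 CPM), eucalyptus smolder replicate 3 (0.137 CPM), red oak flame replicate 3 (0.142 CPM) and pine flame replicate 2 (0.143 CPM). The same held for Saa2 in the hearts of red oak flame replicate 6 (0.300 CPM) and peat flame replicate 4 (0.155 CPM).

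The other 8 were in lungs at 24 h. Saa3 stood high in LPS replicate 1 (475.4 CPM), the LPS lung on plate 1, and Serpina3n in pine needles flame replicate 3 (49.7 CPM). Orm1, a gene of few counts, stood high in pine needles smolder replicate 4 (6.63 CPM, the others at most 0.789 CPM) and Hp in peat smolder replicate 4 (2294.0 CPM). Lcn2 stood low in peat smolder replicate 1 (34.5 CPM) and in pine flame replicate 6 (15.2 CPM). Hp stood low in red oak flame replicate 6 (190.8 CPM) and eucalyptus flame replicate 5 (558.0 CPM). The last 3 of these lungs are among the 6 with few detected genes, with 12545, 9886 and 10172.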

How the results depend on the processing

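The LPS calls of Saa1, Saa2, Saa3, Lcn2 and Serpina3n held under every alternative run at both times, and the number of called genes of the 7 was 5 or 6 throughout. In lung, Saa2 passed the count filter through exposed groups, which limits its calls. The smoke calls were fewer and less stable. At 4 h the 1 call over all smokes, which is that of peat flame, became 0 with no filter, 2 with each time fitted alone and 2 without lungs of few detected genes, and 0 to 1 when 1 library was left out. At 24 h the 3 calls over all smokes became 1 with each time fitted alone and 6 without lungs of few detected genes, and 1 to 2 when 1 saline lung was left out. For peat flame alone at 24 h, the 3 calls became 1 with each time fitted alone and 1 to 3 when 1 library was left out. Saa3 was lost under 4 of 8 alternatives and Saa1 under 1, so the calls were also fewer than 3 under alternatives not listed here. Flaming against smoldering at 24 h gave 0 calls, 2 with DESeq2 and 2 without lungs of few detected genes, and 0 to 1 when 1 library was left out. For peat flame against peat smolder the 1 call became 2 with DESeq2, 0 with 1 plate per time and 0 with each time alone. Among the smokes the 7 calls became 4 with each time alone. In heart the 2 calls, both of Serpina3n, became 0 with each probe alone and 0 with only the compared groups. DESeq2 gave 1 call there, of Lcn2 after peat flame, and no adjusted p for Serpina3n. Heart against lung gave 2 calls, and 5 with no filter. Its fit with the animal as a replicate block gave 2 calls, Hp and Lcn2 as before. The cause of these moves was not tested, except that the filter leaves Serpina3n untested in hearts with each probe alone or only the compared groups.

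Directions turned in values of Hp and Orm1 near 0, and in Lcn2 after pine needles flame at 4 h, which was not near 0. Hp after peat flame at 4 h (-0.01) was 0.07 with its largest probe alone, 0.01 with DESeq2, 0.01 with its size factors and -0.17 to 0.23 when 1 library was left out. Orm1 there (-0.13) was -0.95 to 0.08 when 1 library was left out. Hp after pine needles flame at 4 h (0.02) was -0.09 with DESeq2 and -0.09 with its size factors. When 1 saline lung was left out it was -0.07 to 0.26. Lcn2 after pine needles flame at 4 h was -0.59 to 0.06 in those fits, and -0.55 to -0.42 under the alternatives that change 1 choice. Of 882 such single-gene values 805 kept their direction and side of the threshold, 48 lost a call, 11 gained one and 18 turned. The F test among the smokes was not run in DESeq2. Saa1, Saa2, Orm1 and, in heart, Serpina3n rest on few counts, and a change of severalfold could be missed there.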
